A study of Rattus norvegicus with 11 samples.

Results

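The genes described here are 7 adhesion molecules of neurons: the neurexins Nrxn2 and Nrxn3, the neuroligins Nlgn1, Nlgn2 and Nlgn3, the neural cell adhesion molecule Ncam1 and the cell adhesion molecule L1cam. They were taken by gene name from the non-control probes of the arrays, which gave 7 of 35581 gene or transcript names and 10 of 41012 probes. Nrxn2, Nlgn1 and Nlgn2 had 2 probes each and the other 4 genes had 1. All 10 probes were detected on all 11 arrays, and all 10 were among the 25555 probes tested.

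Neurexins sit in the presynaptic membrane and bind neuroligins of the postsynaptic membrane across the synaptic cleft, which aligns transmitter release with the receptors facing it. Nlgn1 is found mainly at excitatory synapses and Nlgn2 mainly at inhibitory synapses, while Nlgn3 occurs at both. Ncam1 and L1cam are immunoglobulin-type adhesion molecules that act in axon growth, axon bundling and the remodelling of contacts, and Ncam1 is the main carrier of polysialic acid in the brain.

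The arrays compared the medial prefrontal cortex, a region that guides goal-directed behaviour, of 6 rats that had self-administered heroin and 5 rats that had received saline infusions yoked to those of a heroin rat. All were males of 4 months, had 14 days of abstinence, and underwent an extinction session without drug just before the tissue was taken, so past heroin use and the response to that session cannot be told apart. Each rat had 1 single-colour array of 60-base probes. The tissue was a dissected block of cortex, so fewer cells of a type and less RNA per cell cannot be told apart.

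The probes of the genes with 2 probes are shown because the results on Nlgn2 differed between its probes. The first 30 bases of each are given 5′ to 3′ in the sense of the transcript, all in lower case since no stretch is singled out, and "upstream" and "downstream" refer to the direction of the gene's strand in build rn3.
Nrxn2 upstream, chr1:209475311-209475370, plus strand: aagtggaccagagccggaattacatcagta
Nrxn2 downstream, chr1:209476398-209476457, plus strand: ttttttctctttgttaacaaatgtgtctga
Nlgn1 upstream, chr2:111893359-111893418, minus strand: tttgaggtcaatttccaatcgagataaatc
Nlgn1 downstream, chr2:111133660-111133719, minus strand: ggtttgttactctgaagtttgttcctttcg
Nlgn2 upstream, chr10:56661726-56661785, minus strand: accgctttgaagaggtggtatggagcaagt
Nlgn2 downstream, chr10:56660316-56660375, minus strand: tggcacaccagtcttcggtgtgtggaaatg
The positions are those of the whole probes as the array files give them. The 2 Nlgn2 probes lie 1350 bases apart, the 2 Nrxn2 probes 1027 bases apart and the 2 Nlgn1 probes 759639 bases apart. Guanine and cytosine made up 51.7% of the downstream and 48.3% of the upstream Nlgn2 probe, against 38.3% and 55.0% for the Nrxn2 probes and 40.0% and 35.0% for the Nlgn1 probes. Which exon each probe lies in was not analysed here.

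Signals are given in array medians: a probe's signal divided by the 50th percentile of all non-control probes on that array. This scaling left the arrays unequally placed. The median log2 change of all probes tested, heroin minus saline, was 0.18, and 78.7% of them had a change above 0, whereas after quantile normalization, which gives every array the same distribution, the median was 0.01 and the share 53.2%. Both values are therefore given for each gene. Median raw signals ran from 42.7 to 78.3 in heroin rats and from 58.0 to 83.2 in saline rats. Markers of neurons were detected in every rat. Saline replicate 5 stood apart in markers of striatum, the tissue beneath the cortex: its mean log2 signal over 5 striatal probes was 2.79, against 1.30 to 1.64 in the other saline rats and 1.45 to 1.84 in the heroin rats. Rgs9, a striatal regulator of G-protein signalling, read 13.3 array medians in that rat and 3.04 to 5.48 in the other 10, while the striatal marker Ppp1r1b, at 2.05, lay inside the range of the others. Results without that rat are given beside those with it. No probe of the other marker lists, which covered neurons, glia, endothelium and blood, passed both thresholds. Single rats still differed widely in markers of oligodendrocytes, with a mean log2 signal from 3.521 to 5.097 in heroin rats and from 3.522 to 5.025 in saline rats.

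No probe of the 7 genes passed the pair of thresholds of the study, an unadjusted p under 0.02 with a change of at least 1.4-fold, which 2.72% of all probes tested passed, 1.79% higher and 0.927% lower in heroin rats. With quantile normalization 0 of 10 passed, against 1.79% of all probes, with the methods' t-test 0 of 10, against 1.21%, and with limma's array weights 1 of 10, against 9.31%. The threshold on p alone was passed by 1 of the 10 probes, the downstream probe of Nlgn2, against 7.27% of all probes. At an unadjusted p under 0.05, 4 of 10 passed, all with a higher signal in heroin rats, where 18.5% of all probes passed and 15.7% passed with a higher signal. A change above 0 was found in 8 of 10, and in 4 of 10 after quantile normalization. After quantile normalization the count at that p was 1 of 10, against 7.71% of all probes. With saline replicate 5 left out, the count past both thresholds stayed 0 of 10, while it grew from 694 to 2352 probes, or 9.21%, over the whole array. No probe on the array reached an adjusted p under 0.05 by limma with Benjamini-Hochberg adjustment, and the smallest adjusted p was 0.263. The median log2 change of the 10 probes was 0.20, beside 0.18 for all probes, and -0.02 after quantile normalization, beside 0.01.

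**Figure D1:**
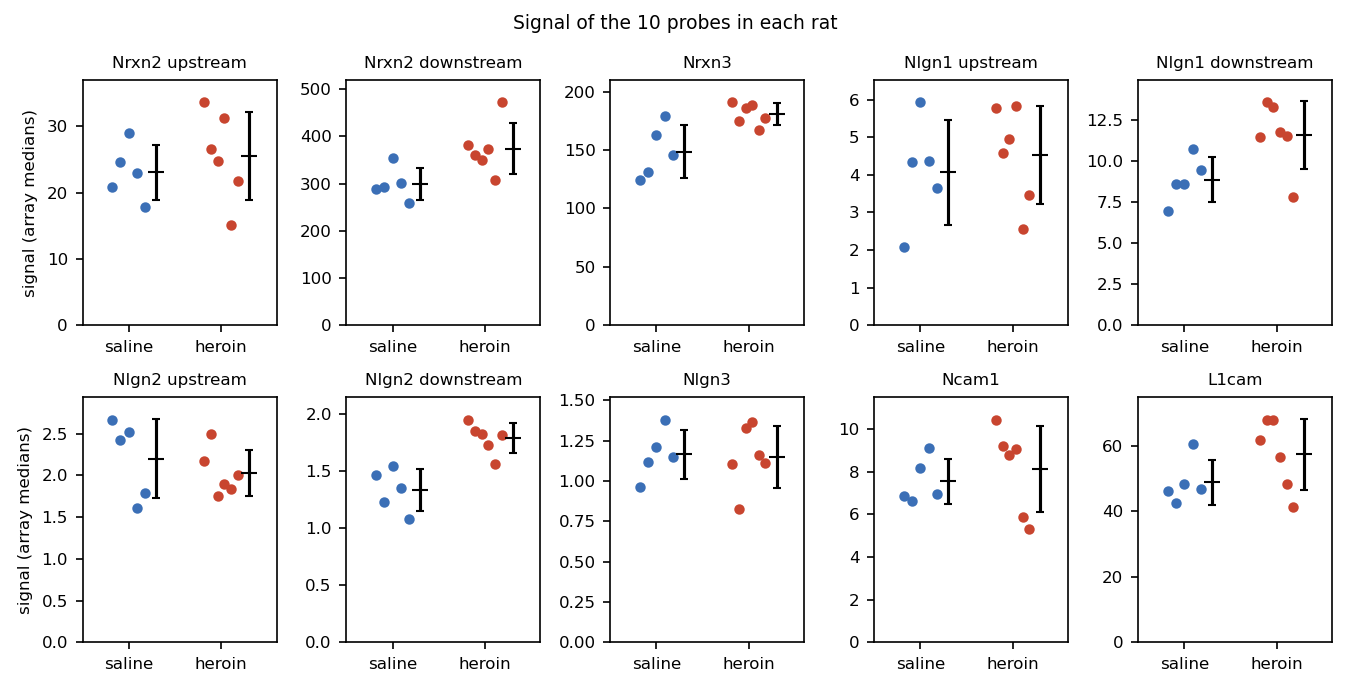
Signal in array medians (vertical axes from 0, each with its own scale) of the 10 probes in each rat, with saline rats (n = 5, blue) on the left and heroin rats (n = 6, red) on the right of each panel. Points are rats and bars are mean ± SD; only the downstream Nlgn2 probe has no overlap between heroin and saline rats.

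Among the neurexins, the downstream probe of Nrxn2 read 288, 293, 354, 301 and 259 array medians in saline replicates 2 to 6, the order kept for every gene, and from 307 to 472 with a median of 367 in heroin rats. The groups overlapped, with 4 of 6 heroin rats above every saline rat. The means were 374 ± 54.6 (SD, n = 6) and 299 ± 34.6 (SD, n = 5), and the log2 change of 0.32 (SE 0.13) had an unadjusted p of 0.0304 and an adjusted p of 0.263 by limma. After quantile normalization the change was 0.07 (SE 0.09). Without saline replicate 5 it was 0.32, with adjusted p = 0.126 by limma.

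The upstream probe of Nrxn2 read 20.9, 24.6, 29.0, 22.9 and 17.9 array medians in the saline rats and from 15.2 to 33.6 with a median of 25.6 in the heroin rats. Heroin replicate 5 was the lowest of all 11 rats and heroin replicate 1 the highest, so the heroin range enclosed the saline range. The log2 change was 0.12 with a 95% interval from -0.30 to 0.53, and -0.12 after quantile normalization. Leaving out single rats gave 0.03 to 0.26, and 0.12 without saline replicate 5.

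Nrxn3, with 1 probe at chr6:113908818-113908877 on the plus strand, read 124, 131, 163, 179 and 145 array medians in saline rats and from 167 to 191 with a median of 182 in heroin rats. Only saline replicate 5, the rat with the raised striatal markers, reached into the heroin range. The heroin mean was 181 ± 9.13 (SD, n = 6) and the saline mean 149 ± 22.6 (SD, n = 5). The log2 change was 0.30 (SE 0.12) with an unadjusted p of 0.0306 by limma. It was 0.37 (SE 0.11) without that rat, with an unadjusted p of 0.00674 and adjusted p = 0.0669 by limma, still under 1.4-fold, and 0.05 (SE 0.09) after quantile normalization of all 11 arrays.

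Of the neuroligins, the downstream probe of Nlgn1 read 6.99, 8.59, 8.64, 10.7 and 9.49 array medians in saline rats and from 7.83 to 13.6 with a median of 11.7 in heroin rats. Of the heroin rats, 5 lay above every saline rat, whereas heroin replicate 6, at 7.83, lay below 4 of the 5 saline rats. The means were 11.6 ± 2.07 (SD, n = 6) and 8.89 ± 1.37 (SD, n = 5), and the log2 change of 0.38 (SE 0.16) had an unadjusted p of 0.0320 by limma. Without heroin replicate 6 the change was 0.49 with an unadjusted p of 0.00241 and adjusted p = 0.205 by limma, past both thresholds. Without saline replicate 5 it was 0.45 with an unadjusted p of 0.0158 and adjusted p = 0.0873 by limma, still under 1.4-fold. After quantile normalization it was 0.14 (SE 0.14).

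The upstream probe of Nlgn1 read 2.08, 4.34, 5.93, 4.37 and 3.64 array medians in saline rats and from 2.56 to 5.84 with a median of 4.76 in heroin rats. The heroin rats all lay inside the saline range. Its log2 change was 0.17 with a 95% interval from -0.38 to 0.73, the widest of the 10 probes, and -0.02 after quantile normalization. Leaving out single rats gave -0.05 to 0.33, and 0.22 without saline replicate 5.

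The downstream probe of Nlgn2, the neuroligin of inhibitory synapses, read 1.46, 1.23, 1.54, 1.35 and 1.08 array medians in saline rats and from 1.56 to 1.95 with a median of 1.82 in heroin rats. Every one of the 6 heroin rats exceeded every saline rat, although the gap was narrow: the lowest heroin rat read 1.56 and the highest saline rat 1.54. This was the 1 probe of the 10 whose groups did not overlap, where 1.78% of all probes did not, and it stayed so after quantile normalization, where 0.56% of all probes did not. The means were 1.79 ± 0.131 (SD, n = 6) and 1.33 ± 0.184 (SD, n = 5). The log2 change was 0.43 (SE 0.12, 95% interval 0.17 to 0.70), which is 1.35-fold, below the 1.4-fold threshold. It had an unadjusted p of 0.00358 and an adjusted p of 0.263 by limma. The exact two-sided permutation test over the 462 divisions of the rats gave p = 0.00216, the smallest it can give, which restates the lack of overlap. After quantile normalization the change was 0.36 (SE 0.11), with an unadjusted p of 0.00523 and an adjusted p of 0.575 by limma. It was smaller with scaling to the 75th percentile, 0.21, and with normexp background correction together with quantile normalization, 0.22. With the 75th percentile, 0 of the 10 probes had an unadjusted p under 0.05 by limma, against 9.55% of all probes. The signal of the downstream Nlgn2 probe was 6.10 times the lowest signal counted as detected.

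The upstream probe of Nlgn2 did not share this pattern. It read 2.67, 2.42, 2.52, 1.61 and 1.79 array medians in saline rats and from 1.75 to 2.50 with a median of 1.95 in heroin rats. The saline rats spread around the heroin rats, with 2 of them above every heroin rat and 1 below every heroin rat. The log2 change was -0.10 (SE 0.16, 95% interval -0.44 to 0.24), and -0.25 (SE 0.17) after quantile normalization. Without saline replicate 5, it was -0.20, and that of the downstream probe was 0.44 with an unadjusted p of 0.00464 and adjusted p = 0.0621 by limma.

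**Figure D2:**
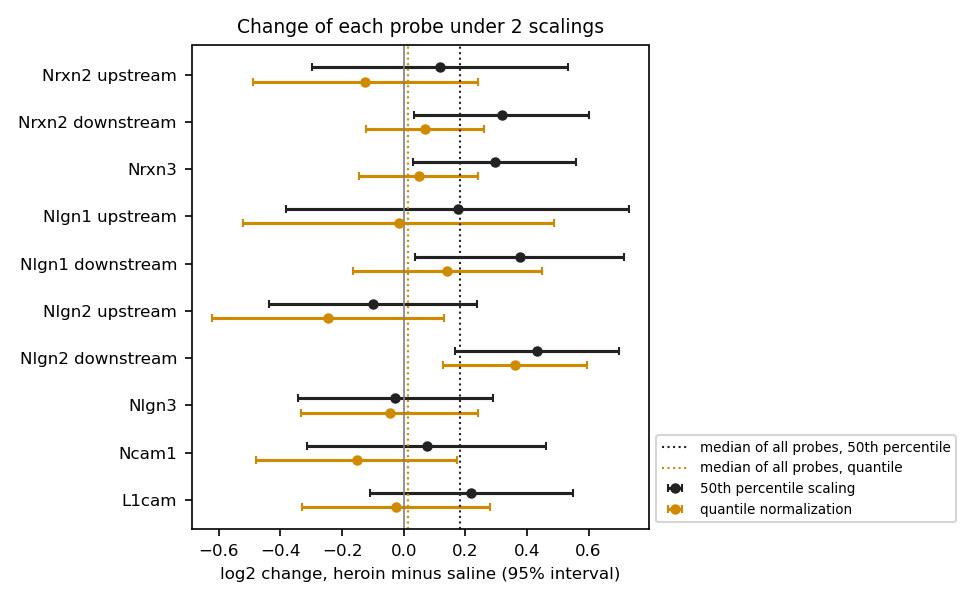
Log2 change, heroin minus saline, of each probe with its 95% interval under 50th percentile scaling (black) and quantile normalization (orange), with dotted lines at the medians of all probes tested, 0.18 and 0.01. The downstream Nlgn2 probe is the 1 whose interval stays above 0 under both, at 0.43 and 0.36.

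Nlgn3, with 1 probe at chrX:89471253-89471312 on the plus strand, read 0.961, 1.12, 1.21, 1.38 and 1.15 array medians in saline rats and from 0.824 to 1.37 with a median of 1.14 in heroin rats. The groups overlapped almost fully. The means of 1.15 ± 0.194 (SD, n = 6) and 1.16 ± 0.152 (SD, n = 5) gave a log2 change of -0.03 with a 95% interval from -0.34 to 0.29, which was 0.04 without saline replicate 5 and 0.07 without heroin replicate 2. After quantile normalization it was -0.05.

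The downstream minus the upstream log2 signal of a gene within one rat does not change when its array is divided by a constant, though quantile normalization can change it. For Nlgn2 this difference was -0.87, -0.98, -0.71, -0.25 and -0.73 in saline replicates 2 to 6, and from -0.44 to 0.06 in heroin rats. In words, the downstream probe was nearer to the upstream probe, or above it, in heroin rats, and 5 of 6 heroin rats lay above every saline rat, with saline replicate 5 reaching among them. The means were -0.18 ± 0.16 (SD, n = 6) and -0.71 ± 0.28 (SD, n = 5), a difference of 0.53 with an exact two-sided permutation p of 0.00866 and an adjusted p of 0.0260 over the 3 genes with a pair of probes. Leaving out each rat in turn gave 0.46 to 0.64, with exact permutation p from 0.00476 to 0.0159. In the same test, quantile normalization gave 0.61 with an exact permutation p of 0.00649, and normexp background correction together with quantile normalization gave 0.35 with an exact permutation p of 0.00649. The same difference was 0.20 for Nrxn2 (exact permutation p = 0.353, adjusted p = 0.478) and 0.20 for Nlgn1 (exact permutation p = 0.478, adjusted p = 0.478). Leaving out single rats gave 0.09 to 0.28 for Nrxn2 and 0.04 to 0.34 for Nlgn1. Leaving out saline replicate 5 gave 0.64 for Nlgn2, 0.20 for Nrxn2 and 0.23 for Nlgn1.

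In all 3 genes the downstream probe had the larger change, and genes on the rest of the array leaned the same way. Among 2397 genes with 2 tested probes on 1 strand, the downstream probe had the larger change in 64.4%, with a median difference of 0.06 and an SD of 0.22 over genes. In each rat, the median downstream minus upstream log2 signal over these genes was from 1.38 to 1.54 in heroin rats and from 1.25 to 1.42 in saline rats, a difference of 0.10 with an exact permutation p of 0.0476. Leaving out each rat in turn gave p from 0.00952 to 0.110 for that difference, by the same exact permutation test. With each rat's median subtracted, the Nlgn2 difference was 0.43 with an exact permutation p of 0.0108, and 4 of 6 heroin rats lay above every saline rat. An absolute difference as large as that of Nlgn2 was found in 4.38% of the genes. The part of RNA quality in this lean was not tested.

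**Figure D3:**
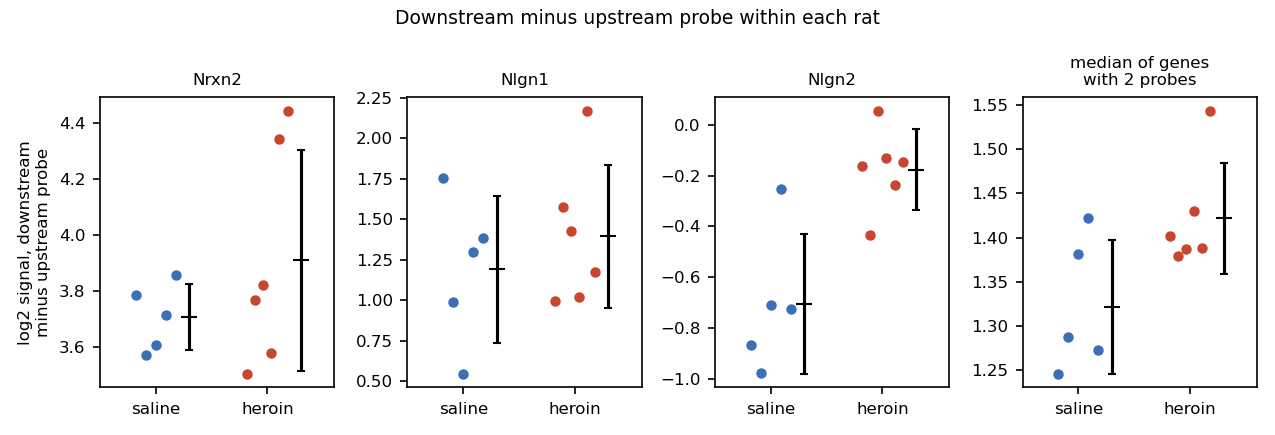
Log2 signal of the downstream probe minus that of the upstream probe in each saline (n = 5, blue) and heroin rat (n = 6, red) for the 3 genes, and at the right the median of this difference over 2397 genes; vertical axes differ and bars are mean ± SD. The Nlgn2 means are -0.71 and -0.18, and only saline replicate 5 reaches the heroin rats.

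Ncam1 was measured by 1 probe printed in 10 spots, at chr8:52844977-52845972 on the minus strand, a span of 996 bases. It read 6.88, 6.64, 8.19, 9.11 and 6.94 array medians in saline rats and from 5.34 to 10.5 with a median of 8.94 in heroin rats. Heroin replicates 5 and 6 were the lowest of all rats and the other 4 heroin rats lay above 4 of the 5 saline rats. The means were 8.13 ± 2.04 (SD, n = 6) and 7.55 ± 1.06 (SD, n = 5), and the log2 change was 0.08 with a 95% interval from -0.31 to 0.46, turning to -0.15 after quantile normalization. The 10 spots differed within an array by an SD of 0.04 to 0.07 on the log2 scale, against an SD of 0.39 over heroin rats and 0.20 over saline rats. Without saline replicate 5 the change was 0.15, with adjusted p = 0.579 by limma.

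The array also held probes on the same stretch of chromosome 8 under other names, looked at after their values were seen. M63970 had a log2 change of 0.08 (SE 0.28) and AW141373 of 0.21 (SE 0.17). Their changes differed from that of the Ncam1 probe by 0.01 (exact permutation p = 0.976) and 0.13 (exact permutation p = 0.349).

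L1cam, at chrX:159860431-159860490 on the minus strand, read 46.2, 42.5, 48.2, 60.6 and 46.6 array medians in saline rats and from 41.4 to 68.0 with a median of 59.2 in heroin rats. Of the heroin rats, 3 lay above every saline rat, and heroin replicate 6 lay below every saline rat. The means were 57.3 ± 10.8 (SD, n = 6) and 48.8 ± 6.90 (SD, n = 5), and the log2 change was 0.22 with a 95% interval from -0.11 to 0.55, turning to -0.02 after quantile normalization. Without saline replicate 5 it was 0.30, with adjusted p = 0.176 by limma.

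Per the file headers, heroin and saline replicates 2 to 6 were scanned in 5 pairs, 1 of each group together. All heroin arrays carried 1 barcode entry in the headers and all saline arrays another. What this entry marks was not examined here, and it and group cannot be told apart. Within the 5 scan pairs the downstream Nlgn2 probe was higher in the heroin rat in 5 of 5, by 0.17 to 0.75 on the log2 scale. After quantile normalization it was higher in 5 of 5 as well. As its groups did not overlap under either scaling, any pairing would give 5 of 5, so these counts only restate that. With the pair as a block the change of this probe was 0.41 (SE 0.17), with an unadjusted p of 0.0298 and an adjusted p of 0.454 by limma. The block fit used only the arrays of the 5 pairs, so heroin replicate 1 was left out. On those arrays without the block, its unadjusted p by limma was 0.0105. The downstream Nrxn2 probe was also higher in 5 of 5 pairs, but in 2 of 5 after quantile normalization. Nrxn3 and the downstream Nlgn1 probe were higher in 4 of 5 under both scalings. With the pair as a block, p was 0.0993 for the downstream Nrxn2 probe, 0.118 for Nrxn3 and 0.0725 for the downstream Nlgn1 probe by limma. On the same arrays without the block, these limma p-values were 0.0542, 0.0616 and 0.0504. Ncam1 and L1cam were each higher in 3 of 5 pairs and Nlgn3 in 2 of 5.

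**Figure D4:**
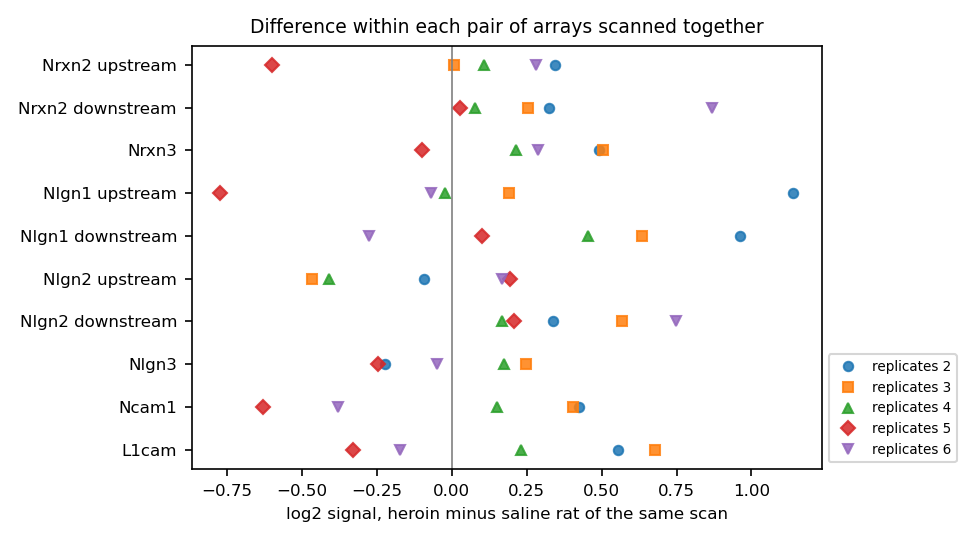
Log2 signal of the heroin rat minus that of the saline rat for each of the 5 pairs of arrays scanned together (1 symbol per replicate number), for the 10 probes. The downstream Nlgn2 probe lies above 0 in 5 of 5 pairs, from 0.17 to 0.75, as any pairing would give since its groups do not overlap.

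The other genes of these pathways were read from 5 lists of 99 genes, of which 84 were tested with 120 probes. Of these probes 3 passed both thresholds, all higher in heroin rats, beside 2.72% of all probes, and 19 had an unadjusted p under 0.05, beside 18.5% of all probes. When saline replicate 5 was left out, 10 passed higher and 1 lower, beside 9.21% of all probes, and leaving out any other single rat gave 1 to 3 higher and 0 lower. The median log2 change of the 120 was 0.22, beside 0.18 for all probes, and 0.01 after quantile normalization, beside 0.01. Among postsynaptic partners, which hold scaffolds and neurexin ligands, 1 of 19 probes passed, higher, and of the presynaptic neurexin family and its partners 0 of 22. Of immunoglobulin-type adhesion molecules 1 of 31 probes passed, as did 1 of 24 probes of enzymes and binding partners of Ncam1 and L1cam, and 0 of 24 of other synaptic adhesion receptors.

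Contactin 4, an axonal immunoglobulin-type adhesion molecule, had the smallest limma p of the 120 list probes, with a higher mean in heroin rats. It was picked by that p, so the further values below, from the same rats, are no independent support. Cntn4 read 3.20 ± 0.40 array medians (SD, n = 6) against 2.18 ± 0.564 (SD, n = 5), with an exact permutation p of 0.0108. Its log2 change was 0.58 (SE 0.16), with an unadjusted p of 0.00246 by limma. The 2 groups overlapped, from 2.74 to 3.85 in heroin and from 1.76 to 3.15 in saline rats. Its change was 0.43 after quantile normalization, where it no longer reached 1.4-fold. Cbln2, a secreted cerebellin that bridges neurexins to postsynaptic receptors, read 1.73 ± 0.329 (SD, n = 6) against 1.19 ± 0.277 (SD, n = 5), a change of 0.55 (SE 0.18) with an exact permutation p of 0.0152. It was 0.49 after quantile normalization and there passed both thresholds again. Leaving out single rats kept Cntn4 past both thresholds in 11 of 11 cases and Cbln2 in all but those without heroin replicate 3 (0.47) and without saline replicate 4 (0.41). All 4 probes with the smallest p had an adjusted p of 0.263. With saline replicate 5 left out, the log2 changes were 0.72 for Cntn4, 0.59 for Cbln2, 0.47 for Slitrk5, 0.45 for Fyn and 0.73 for a probe of Gfra1.

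Slitrk5, a postsynaptic adhesion receptor for presynaptic phosphatases, read 46.2 ± 2.76 array medians (SD, n = 6) against 35.0 ± 3.86 (SD, n = 5). Its groups did not overlap, where 1.78% of all probes tested did not. The exact permutation p of 0.00216, the smallest possible, restates that lack of overlap. The Slitrk5 change of 0.41 (SE 0.12) was under 1.4-fold and was 0.16 after quantile normalization, with an unadjusted p of 0.128 by limma. Another Slitrk5 probe, detected on 10 arrays and so not tested, had a mean of 0.41 array medians in heroin and 0.42 in saline rats. The probe of Fyn, a kinase that signals from Ncam1, had a change of 0.41 (SE 0.13), and 0.21 after quantile normalization. Another Fyn probe had a change of 0.35 (SE 0.15), and 0.11 after quantile normalization. The third probe past both thresholds, named after its values were seen, was 1 of 2 for Gfra1, a receptor for glial cell line-derived neurotrophic factor that binds Ncam1. This Gfra1 probe had a change of 0.59 (SE 0.22) with an exact permutation p of 0.0411, the other Gfra1 probe of 0.03 (SE 0.19), and the first lost its place past the thresholds in 8 of the 11 cases with a rat left out. After quantile normalization a probe of Ank3, which anchors L1-type molecules to the cytoskeleton, passed both thresholds in the other direction, at -0.52, where 0.935% of all probes did so and 0.853% did so upward. Under 50th percentile scaling this Ank3 probe was at -0.33 and the other Ank3 probes at 0.31 and 0.19, which after quantile normalization were at 0.06 and -0.02.

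**Figure D5:**
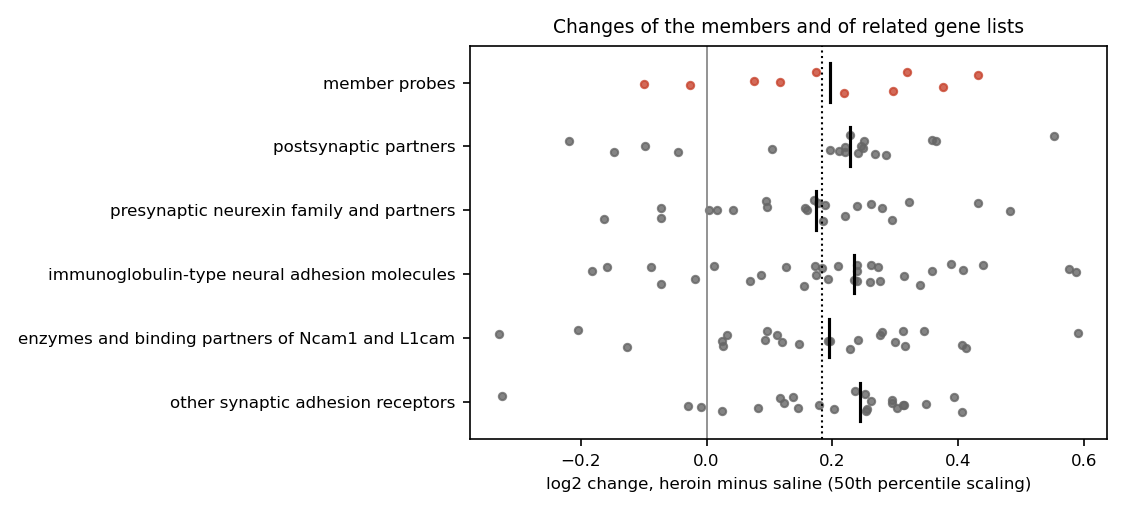
Log2 change, heroin minus saline under 50th percentile scaling, of each probe of the 7 genes (red) and of the 5 lists (grey), with a short bar at each median; the dotted line marks the median of all probes tested, 0.18. The list medians lie between 0.17 and 0.24, and that of the 7 genes at 0.20.

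The genes most like 6 of the 7 across the 11 arrays were found by the root mean square difference in centred log2 signal after quantile normalization, among 11159 gene-named probes. For Ncam1 the nearest was 1 probe of Alcam, another immunoglobulin-type adhesion molecule, at 0.07 against a spread of 0.25 for Ncam1 itself, and then Rragd_predicted. After quantile normalization this Alcam probe had a log2 change of -0.10, and a brighter Alcam probe one of 0.01. The nearest to Nlgn1 were Scfd1 and Fut8, to Nlgn3 Fut2 and Hivep3_predicted, and to L1cam Usp10 and Nsfl1c. For Nrxn2 they were Rasip1_predicted and Aven_predicted, and for Nrxn3 Lrrc8d and Sptlc1_predicted. The match was looser against the gene's own spread for Nrxn2 (nearest 0.049, spread 0.094), Nrxn3 (0.058, 0.093) and Nlgn3 (0.115, 0.199). For Nlgn1 the nearest was at 0.082 with a spread of 0.226, and for L1cam at 0.061 with a spread of 0.215.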

How the data were processed

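Medial prefrontal cortex of 6 heroin and 5 yoked saline rats was hybridised to single-colour Agilent arrays, 1 per rat. Groups came from the sample titles; 11 arrays were used. The deposited scanner files hold the authors' background-subtracted spot intensity from Feature Extraction 9.5.1.1. A further deposited table holds the authors' ratio of each value to the saline rats, for 23670 probes; it lacks L1cam and was used as an alternative.

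As in the methods, intensities under 5 were set to 5 and each array was divided by the 50th percentile of its 41012 non-control probes, and log2 was taken. Marked spots (non-uniform or outlier) were dropped, and repeated spots of a probe averaged. The 25555 tested probes were detected on all 11 arrays and had at least 2 usable values in each group. They were compared with limma 3.58.1 (lmFit and eBayes, two-sided) in R 4.3.3, and p-values were adjusted over all of them by Benjamini-Hochberg. A probe passed with an unadjusted p under 0.02 and at least 1.4-fold. Single values were tested by exact two-sided permutation of the rats. The script was tested on simulated data. Each group's rats are separate animals; RNA extraction batches are not given in the sources used here. The number of arrays limits the precision.

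Named were the 7 genes, the pathway probes past both thresholds, or the 4 with the smallest p where fewer than 4 passed, and the 2 genes nearest to each of the 7 by its brightest probe; some results that this rule covers are not reported here. The members and lists were chosen with earlier results of these data known. Same-numbered rats were scanned together per the file headers. Their deviations from the group means correlated at 0.38, -0.13, 0.35, 0.02 and -0.24 for replicates 2 to 6. These values cannot show whether same-numbered rats were yoked to each other. The numbers were not taken to pair the rats, so the permutation tests ignore any such pairing.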

Additional observations from a re-analysis of the deposited data

Results flagged for a closer look

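The downstream probe of Nlgn1 had 1 rat far from the others of its group: heroin replicate 6 read 7.83 array medians, where the other 5 heroin rats read 11.5 to 13.6. Its gap to the nearest heroin rat was 0.697 of the range of the group on the log2 scale, above the critical value for 6 samples of Dixon's test. This was 1 of 26 groups checked, and chance alone marks about 5 in 100. That rat's array also had the lowest median raw signal, 42.7, and the part of this in its low value was not tested.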

How the results depend on the processing

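The number of probes past both thresholds, 0, became 1 with array weights (the downstream Nlgn2 probe), and 0 to 1 when single rats were left out: the downstream Nlgn1 probe without heroin replicate 6 and the downstream Nlgn2 probe without saline replicate 4. Array weights also moved the count of all probes at an adjusted p under 0.05 from 0 to 7862, or 30.8%, and of the 10 probes from 0 to 5. The median log2 change of the 10 probes, 0.20, was 0.0063 with the 50th percentile of detected probes, -0.021 with the 75th percentile, -0.0203 with quantile normalization, -0.038 with normexp and quantile normalization and 0.35 with array weights, and from 0.14 to 0.29 when each rat was left out. The replicate block gave a median of 0.14 and 0 probes past both thresholds.

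Of the 153 values of the 7 genes' brightest probes under the alternatives, 141 kept their direction and side of the thresholds. Another 11 changed sign and 1 (Nlgn1 without heroin replicate 6, 0.49) newly passed. None of these probes passed with 50th percentile scaling of all arrays, so the count does not measure whether a change kept its size. Nrxn3, at 0.30, counted as kept at 0.05 with quantile normalization. The downstream Nlgn2 probe was not among the brightest probes. Ncam1, at 0.08, was -0.12 with the 50th percentile of detected probes, -0.14 with the 75th percentile, -0.13 with normexp and quantile normalization together, -0.15 with quantile normalization, -0.0056 with the replicate block and -0.0056 without heroin replicate 1, but 0.36 with array weights. L1cam, at 0.22, was -0.052 with normexp and quantile normalization together, -0.024 with quantile normalization alone and 0.40 with array weights. Nlgn2, at -0.10 for its upstream probe, was 0.17 with both probes averaged. Nlgn3, at -0.03, was 0.065 without heroin replicate 2 and 0.037 without saline replicate 5. The causes were not tested. When each rat was left out in turn, the change of Nlgn3 ran from -0.094 to 0.065, of Ncam1 from -0.0056 to 0.19, of L1cam from 0.17 to 0.31, of Nlgn1 from 0.29 to 0.49, of the upstream Nlgn2 probe from -0.20 to -0.02, of Nrxn2 from 0.25 to 0.38 and of Nrxn3 from 0.23 to 0.37.

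The methods' t-test, with unequal variances, passed 1.21% of all probes and 0 of the 10; after Benjamini-Hochberg adjustment it called 0 probes. The barcode entry of the headers was not used as a block, since it split the arrays by group. The Nlgn2 and Nlgn3 probes read 4.56 to 8.14 times the lowest detected signal. The quantile-normalized pair differences were added after the data were seen.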
